A study of Mus musculus with 6 samples.

Results

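Disease-associated microglia genes are a set of transcripts that microglia raise in damaged, aged or demyelinated nervous tissue. 10 of them, *Cst7*, *Itgax*, *Spp1*, *Gpnmb*, *Clec7a*, *Axl*, *Lgals3*, *Cd9*, *Apoe* and *Lyz2*, were taken by symbol from a table of raw counts for 53746 genes in mouse cerebellum. Each symbol matched 1 gene, and all 10 were among the 16961 genes kept by edgeR's low-count filter. The 3 Pcp2-cre mice were *N153S* LSL/LSL *Pcp2-cre*: a stop cassette flanked by loxP sites sits before the N153S mutant of *Sting1*, and Cre under the *Pcp2* promoter removes it in Purkinje cells. The 3 control mice were *N153S* LSL/LSL without Cre, so both genotypes carry the knockin allele, which stays silent where Cre does not act. N153S makes STING, the adaptor of cytosolic DNA sensing, active without its ligand. All 6 mice were 2 months old, and in each genotype mice 1 and 2 were male and mouse 3 was female. RNA came from whole frozen cerebellum, so the mutant is directed to neurons while the genes described here are best known from microglia, and a value mixes every cell type of the tissue.

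Microglia are the resident macrophages of the brain. In the disease-associated state they lower part of their homeostatic program and raise genes for lipid handling, lysosomal digestion, adhesion and phagocytosis, a change that depends in part on the receptor TREM2 and its adaptor TYROBP. Several genes of the set are not particular to microglia: astrocytes make most brain APOE, and *Axl* and *Cd9* are also transcribed in other glia and in vessels.

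All 10 genes had higher CPM (counts scaled to library size, with TMM normalization) in every Pcp2-cre mouse than in any control mouse. Over all genes tested, 1840 of 16961 (10.8%) had that separation. A gene was called where edgeR's quasi-likelihood test gave a Benjamini-Hochberg adjusted p no higher than 0.05 and the log2 fold change (log2FC) was 0.5 or more, up or down. By this rule 9 of the 10 were called higher, against 1.37% of all genes tested called higher and 1.79% called lower. *Cst7*, *Itgax*, *Clec7a*, *Gpnmb* and *Lgals3* met the low-count filter only with the help of the Pcp2-cre mice, where they are higher. These genes drop out where 10 counts are required in every mouse. Of the 5 that stay, 4 were called higher, as were 160 of all 15755 genes then tested. The median log2FC was 1.96 over the 10 genes and 0.00 over all genes tested. *Axl* was the exception, with an adjusted p under the threshold and a fold change too small for a call.

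**Figure D1:**
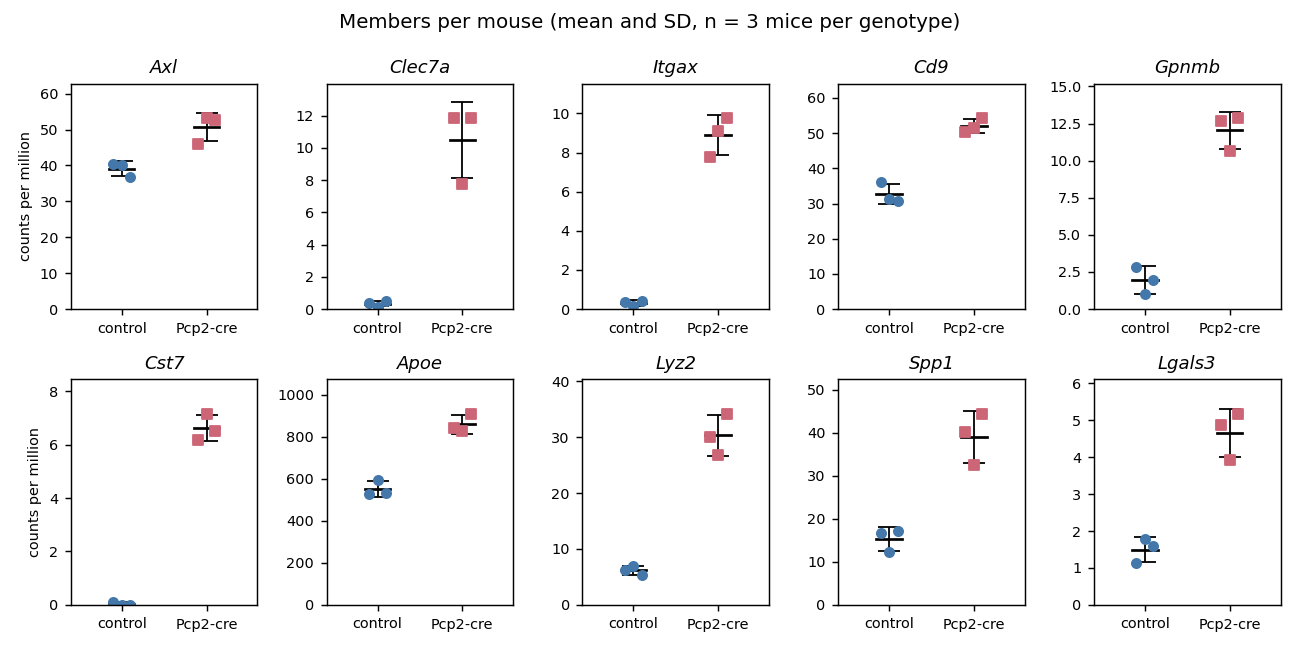
CPM (linear axes from 0) of the 10 genes in each mouse, with control mice as blue circles, Pcp2-cre mice as red squares, and black bars for the mean and SD of 3 mice. The groups do not overlap in any panel, from *Cst7* with 0.0416 against 6.62 CPM to *Axl* with 39.1 against 50.7 CPM. When scaled to microglial counts, *Apoe*, *Cd9* and *Axl* are called lower in Pcp2-cre mice, as are 98.9% of all genes tested.

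Library totals ran from 6733178 to 10178218 counts, and 3 counts, used as the floor of detection, came to 0.297 to 0.447 CPM, which covers counting error only. *Sting1* had 23.2, 27.2 and 26.2 CPM in the control mice and 44.4, 34.2 and 35.5 CPM in the Pcp2-cre mice, and 5 of 5 sex-linked genes followed the sex labels. No pair of replicates agreed within counting noise (chi-square 1.35 to 3.39 per gene). Control mice 1 and 2 stood apart in choroid plexus genes, which summed to 1578 and 2251 CPM there, 162 CPM in control mouse 3 and 162 to 259 CPM in the Pcp2-cre mice. With a choroid plexus score as a covariate the same 9 genes were called, and the log2FC was 0.71 for *Apoe* and 0.48 for *Axl*. The numbers of microglia and the RNA made by each microglial cell cannot be told apart in these bulk samples.

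The receptors and adhesion molecules ranged from among the largest changes of the set, *Clec7a* and *Itgax*, to the smallest, *Axl*. *Clec7a* encodes dectin-1, a C-type lectin receptor for fungal and other glucans that signals through SYK (GRCm39 chr6:129438554-129449742, reverse strand). Its counts were 3, 1 and 5 in control and 90, 67 and 80 in Pcp2-cre mice. The control mice lay near the floor and every Pcp2-cre mouse lay far above it. Its log2FC was 4.78 (standard error, SE, 0.325, adjusted p = 1.35e-09 in edgeR's quasi-likelihood test). Every SE here is the size of the log2FC divided by the square root of the test's F statistic. It understates the uncertainty of *Clec7a*, *Itgax* and *Cst7*, which have few control counts. For *Clec7a* the ratio of the groups' pooled counts, scaled to library size, was 28.4, with a 95% counting interval of 14.7 to 62.9.

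*Itgax* encodes CD11c, the alpha chain that pairs with the beta 2 integrin to form complement receptor 4 (chr7:127728668-127749829, forward strand). Its counts were 3, 1 and 4 in control and 59, 79 and 66 in Pcp2-cre mice. Here too the groups were far apart, with a log2FC of 4.72 (SE 0.302, adjusted p = 6.73e-10 in edgeR) and a ratio of pooled counts of 27.5, with a 95% counting interval of 13.7 to 64.6. Of the 100-base stretches of its longest coding transcript, 3.65% are also found in the paralog *Itgad*. *Itgad* itself had 12, 2 and 4 counts in control and 2, 0 and 1 counts in Pcp2-cre mice, so it was not higher in Pcp2-cre mice.

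*Gpnmb*, a transmembrane glycoprotein of lysosomes and the cell surface that is raised in lipid-laden phagocytes (chr6:49013426-49047863, forward strand), was already detected in controls. It had 2.87, 1.04 and 1.98 CPM in control and 12.6, 10.6 and 12.9 CPM in Pcp2-cre mice. The control mice varied by more than the Pcp2-cre mice in relative terms, and the log2FC of 2.57 (SE 0.221, adjusted p = 4.06e-08 in edgeR) lay between 2.32 and 2.89 when any 1 mouse was left out.

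*Cd9* and *Axl* were abundant in controls and moved least among the receptors. *Cd9*, a tetraspanin that organises membrane proteins (chr6:125437210-125471778, reverse strand), had 36.1, 31.3 and 30.8 CPM in control and 50.4, 51.6 and 54.3 CPM in Pcp2-cre mice. Its log2FC was 0.67 (SE 0.0744, adjusted p = 1.65e-06 in edgeR). *Axl* encodes a receptor tyrosine kinase that binds GAS6, a bridge to phosphatidylserine, and takes part in clearing dead cells (chr7:25456535-25488329, reverse strand). It had 40.5, 40.1 and 36.7 CPM in control and 46.1, 53.2 and 52.7 CPM in Pcp2-cre mice. The groups were separate by a narrow margin, and the log2FC of 0.38 (SE 0.0740, adjusted p = 0.00152 in edgeR) was under the threshold of 0.5.

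A lncRNA on the other strand, *Gm26728*, overlaps the exons of *Cd9* by 242 bases, and 12% of the 100-base stretches of the *Cd9* transcript also lie in it. It had 70, 57 and 84 counts in control and 104, 118 and 94 counts in Pcp2-cre mice. In the second deposited table, of FPKM values (fragments scaled to exon length and to library size), *Gm26728* was at 0.211 or less in every mouse while *Cd9* was at 22.1 or more. The sources used here do not say whether strand was used in counting, so the reads of *Cd9* and *Gm26728* cannot be told apart in the count table. Other genes on the opposite strand also overlap exons of *Lyz2* (534 bases), *Apoe* (521 bases) and *Gpnmb* (190 bases). By symbol, none of these is among the genes counted. A same-strand gene, *Gm42793*, overlaps *Spp1* (362 bases) and had at most 2 counts in any mouse.

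Among the secreted and lysosomal products, *Cst7* moved most. It encodes cystatin F, an inhibitor of lysosomal cysteine proteases such as cathepsin C (chr2:150412284-150420864, forward strand). Its counts were 1, 0 and 0 in the control mice and 47, 62 and 44 in the Pcp2-cre mice. No control mouse exceeded the floor, and the 3 Pcp2-cre mice were close to each other at 6.19, 7.16 and 6.51 CPM. The edgeR log2FC of 6.89 (SE 0.465, adjusted p = 1.20e-09) depends on the prior count for so low a control group. The ratio of pooled counts, scaled to library size, was 165, and its 95% counting interval of 29.2 to 6560 shows how little 1 control count fixes it. Without control mouse 1, which holds that count, the fitted value was 8.73, and without control mouse 3 it was 6.30.

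*Lyz2*, the lysozyme of macrophages and other myeloid cells (chr10:117111557-117118346, reverse strand), had 6.24, 6.998 and 5.35 CPM in control and 30.03, 26.9 and 34.2 CPM in Pcp2-cre mice. Each Pcp2-cre mouse was several-fold above the highest control, with a log2FC of 2.30 (SE 0.126, adjusted p = 6.54e-11 in edgeR). Its paralog *Lyz1* had at most 1 count in any mouse.

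*Spp1* and *Lgals3* encode secreted ligands of the cell surface. *Spp1* is osteopontin, which binds CD44 and integrins (chr5:104582165-104589235, forward strand), and had 16.6, 12.2 and 17.2 CPM in control and 40.2, 32.4 and 44.4 CPM in Pcp2-cre mice. *Lgals3* is galectin-3, a lectin that binds galactosides on cell surfaces and on damaged lysosomes (chr14:47605208-47623624, forward strand), and had 1.12, 1.79 and 1.58 CPM in control and 4.87, 3.93 and 5.18 CPM in Pcp2-cre mice. Mouse 2 was the lowest of the Pcp2-cre mice for both genes. The log2FC was 1.31 for *Spp1* (SE 0.120, adjusted p = 9.94e-08 in edgeR) and 1.62 for *Lgals3* (SE 0.252, adjusted p = 1.42e-04 in edgeR).

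*Apoe*, the main lipid carrier of the brain (chr7:19430034-19434947, reverse strand), was the most abundant of the 10 in either genotype. It had 529, 595 and 532 CPM in control and 842, 826 and 910 CPM in Pcp2-cre mice. The spread within each genotype was small against the step between them, and the log2FC was 0.64 (SE 0.0464, adjusted p = 3.37e-09 in edgeR).

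Promoter sequences of the 3 genes with the largest fold changes are shown because these genes moved together from near or below the floor of detection. The sequences are from RefSeq, run up to the RefSeq transcript start, and were trimmed where they would reach more than 30 bases into the Gencode gene. Each matched 1 place on its chromosome of GRCm39. Capitals mark GAGGAA, the core of sites for PU.1, the myeloid factor encoded by *Spi1*, and TGAGTCA, the consensus of AP-1.
Cst7 (chr2:150412085-150412313, forward strand): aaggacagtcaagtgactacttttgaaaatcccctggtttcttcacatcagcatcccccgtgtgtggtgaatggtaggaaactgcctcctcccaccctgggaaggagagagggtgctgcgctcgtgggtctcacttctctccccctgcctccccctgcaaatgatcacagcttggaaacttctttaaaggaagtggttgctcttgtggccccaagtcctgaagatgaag
Clec7a (chr6:129449743-129449992, reverse strand): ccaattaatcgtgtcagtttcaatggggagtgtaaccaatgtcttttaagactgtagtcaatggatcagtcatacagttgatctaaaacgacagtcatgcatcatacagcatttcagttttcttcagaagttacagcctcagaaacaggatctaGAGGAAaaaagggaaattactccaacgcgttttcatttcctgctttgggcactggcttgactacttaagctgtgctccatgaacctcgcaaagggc
Itgax (chr7:127728472-127728697, forward strand): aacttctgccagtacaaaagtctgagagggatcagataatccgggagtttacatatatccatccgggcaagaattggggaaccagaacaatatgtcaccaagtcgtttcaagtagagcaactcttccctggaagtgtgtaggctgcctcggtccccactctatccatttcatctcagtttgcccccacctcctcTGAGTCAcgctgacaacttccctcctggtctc
Motifs were searched on both strands in the whole RefSeq windows, which run from 250 bases before to 50 bases after the start. The 10 genes have 14 windows, some of which overlap. GAGGAA lay in 6 of the 14, from 4 genes (*Apoe*, *Axl*, *Clec7a* and *Spp1*), against 28.3% of 32851 windows of all genes. TGAGTCA lay in 2 of the 14 windows (*Itgax* and *Gpnmb*) against 5.2% of all windows, and CACGTG, the E-box read by the lysosomal regulator TFEB among others, in 0 of the 14 against 7.15%. The *Cst7* stretch holds none of these 3 motifs. A match describes letters in this window and not a bound site.

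Per length, the order of the genes changed between the genotypes. In FPKM, control mice held *Apoe* at 477 ± 24.7 (SD, n = 3), *Cd9* at 23.7 ± 1.35, *Spp1* at 8.74 ± 1.86, *Axl* at 8.01 ± 0.591 and *Lyz2* at 4.06 ± 0.550. *Lgals3* followed at 0.785 ± 0.194, *Gpnmb* at 0.435 ± 0.0737, *Clec7a* at 0.0905 ± 0.0335 and *Itgax* at 0.0507 ± 0.0216, and *Cst7* was listed at 0 in all 3. Only *Spp1* with *Axl* and *Clec7a* with *Itgax* overlapped among neighbours in this order.

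In Pcp2-cre mice *Apoe* stood at 814 ± 28.0 FPKM (SD, n = 3), *Cd9* at 36.8 ± 0.925, *Spp1* at 24.1 ± 2.50, *Lyz2* at 20.5 ± 2.08 and *Axl* at 10.5 ± 0.732. *Cst7* at 5.72 ± 0.410 and *Clec7a* at 5.25 ± 0.379 stood above *Gpnmb* at 2.72 ± 0.331, *Lgals3* at 2.70 ± 0.646 and *Itgax* at 1.85 ± 0.237. *Spp1* overlapped with *Lyz2*, *Cst7* with *Clec7a*, and the last 3 genes with their neighbours. *Cst7* thus went from the tenth to the sixth place, while *Apoe* and *Cd9* kept the first and second.

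A large fold did not go with a large amount in every gene. *Apoe* had one of the smallest FPKM folds, 1.71, and the largest FPKM difference, 337, followed by *Lyz2* at 16.4, *Spp1* at 15.4 and *Cd9* at 13.1. *Itgax*, with an FPKM fold of 36.5, had a difference of 1.80. Over the 10 genes, Spearman's rho between the control FPKM and the log2FC was -0.90, a description in which both values share the control libraries. For each gene the FPKM values of the groups did not overlap, which gives an exact two-sided permutation p of 0.1, the smallest that 3 against 3 mice allow.

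Because a list of pan-microglial genes was higher, each gene was also set against their sum. The 12 pan-microglial genes, among them *Csf1r*, *Aif1*, *Itgam*, *Ptprc*, *Spi1*, *Irf8* and the C1q genes, were all called higher, with a median log2FC of 1.88. They summed to 118 to 122 CPM in control and 344 to 385 CPM in Pcp2-cre mice. A second edgeR fit took this sum, in place of the library size, as the scale, with its own error left out. It moved the median log2FC of all genes tested to -1.56, so its values are changes against microglial counts and not against the tissue.

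On that scale 5 of the 10 genes were called higher (*Cst7*, *Itgax*, *Clec7a*, *Gpnmb* and *Lyz2*), against 0.189% of all genes tested, and 3 were called lower (*Apoe*, *Cd9* and *Axl*), against 98.9% of all genes tested, so a lower value on this scale is shared with nearly all of those genes. Per 1000 pan-microglial counts, *Cst7* had 1.02, 0 and 0 counts in control and 18.0, 20.7 and 16.9 in Pcp2-cre mice, a log2FC of 5.54 (SE 0.601, adjusted p = 2.87e-12 in edgeR) that was 8.25 without control mouse 1 and 4.90 without control mouse 3. *Clec7a* had 3.07, 1.26 and 4.06 against 34.5, 22.3 and 30.7, a log2FC of 3.25 (SE 0.356, adjusted p = 3.98e-12 in edgeR). *Itgax* had 3.07, 1.26 and 3.24 against 22.6, 26.4 and 25.4, a log2FC of 3.19 (SE 0.360, adjusted p = 1.04e-11 in edgeR). For these 3 genes every Pcp2-cre mouse lay several-fold above every control mouse per microglial count.

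*Gpnmb* and *Lyz2* had smaller changes on this scale. *Gpnmb* had 23.5, 8.82 and 16.2 counts per 1000 in control and 36.8, 30.7 and 33.4 in Pcp2-cre mice (log2FC 1.01, SE 0.231, adjusted p = 6.06e-05 in edgeR). *Lyz2* had 51.2, 59.2 and 43.8 against 87.3, 77.7 and 88.8 (log2FC 0.74, SE 0.139, adjusted p = 2.53e-06 in edgeR). Neither gene overlapped between the genotypes on this scale.

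*Lgals3* and *Spp1* were not called in either direction on this scale. *Lgals3* had 9.21, 15.1 and 12.98 counts per 1000 in control and 14.2, 11.3 and 13.4 in Pcp2-cre mice, with a log2FC of 0.07 (SE 0.280, adjusted p = 0.807 in edgeR). *Spp1* had 136, 103 and 141 against 117, 93.7 and 115, with a log2FC of -0.25 (SE 0.116, adjusted p = 0.0389 in edgeR), under the fold threshold. The genotypes overlapped for both. Against the 10 homeostatic genes in place of the pan-microglial ones, the log2 value of *Spp1* was 0.09 (adjusted p = 0.464 in edgeR).

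*Apoe* had 4577 counts per 1000 pan-microglial counts in control and 2400 in Pcp2-cre mice on average (log2FC -0.93, SE 0.0744, adjusted p = 7.35e-17 in edgeR). *Cd9* had -0.89 (SE 0.0944, adjusted p = 1.34e-12 in edgeR) and *Axl* had -1.19 (SE 0.0936, adjusted p = 4.52e-17 in edgeR). For these 3 genes, which were higher against the library, the direction thus depends on the scale. The scale puts the median log2FC of all genes tested at -1.56, below all 3 values. A gene unchanged against the library is therefore also lower here, and these adjusted p values do not single out the 3 genes. The ratio is not a level per microglial cell for genes that other cells also transcribe.

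**Figure D2:**
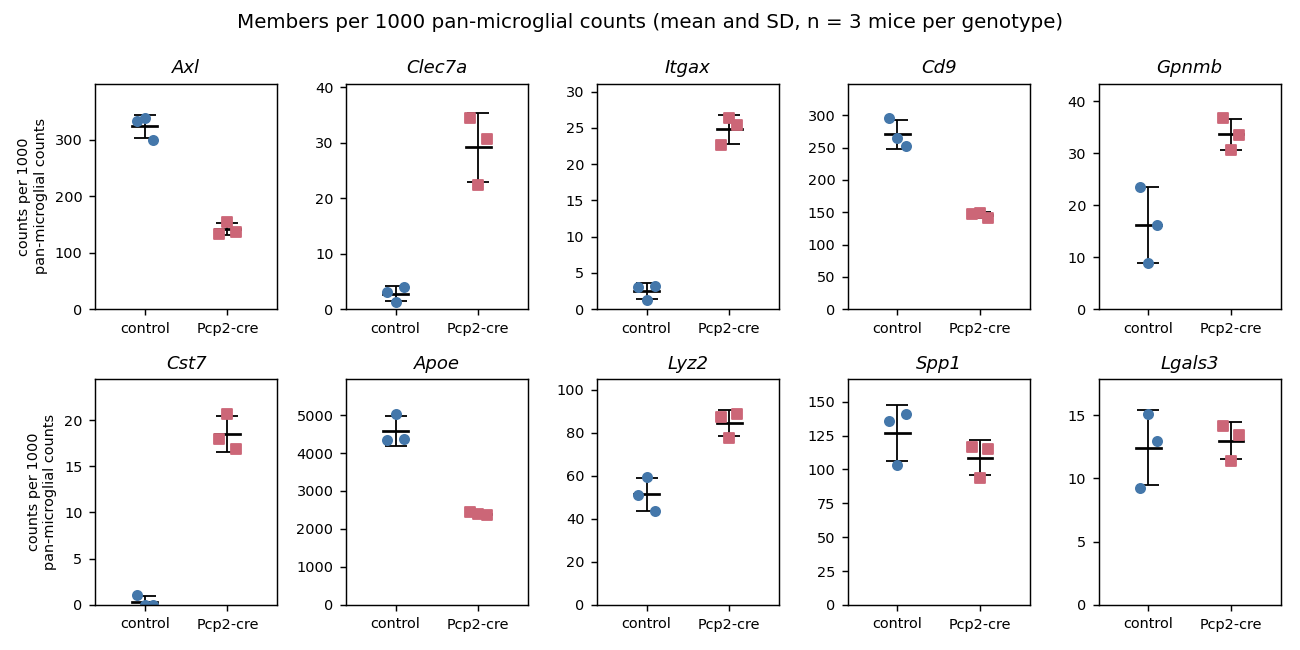
Counts of each gene per 1000 counts of the 12 pan-microglial genes (linear axes from 0), per mouse, with control mice as blue circles, Pcp2-cre mice as red squares, and black bars for the mean and SD of 3 mice. *Cst7*, *Clec7a*, *Itgax*, *Gpnmb* and *Lyz2* stay higher in Pcp2-cre mice, and *Spp1* and *Lgals3* overlap. *Apoe*, *Cd9* and *Axl*, higher per library, are called lower here, as are 98.9% of all genes tested.

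**Figure D3:**
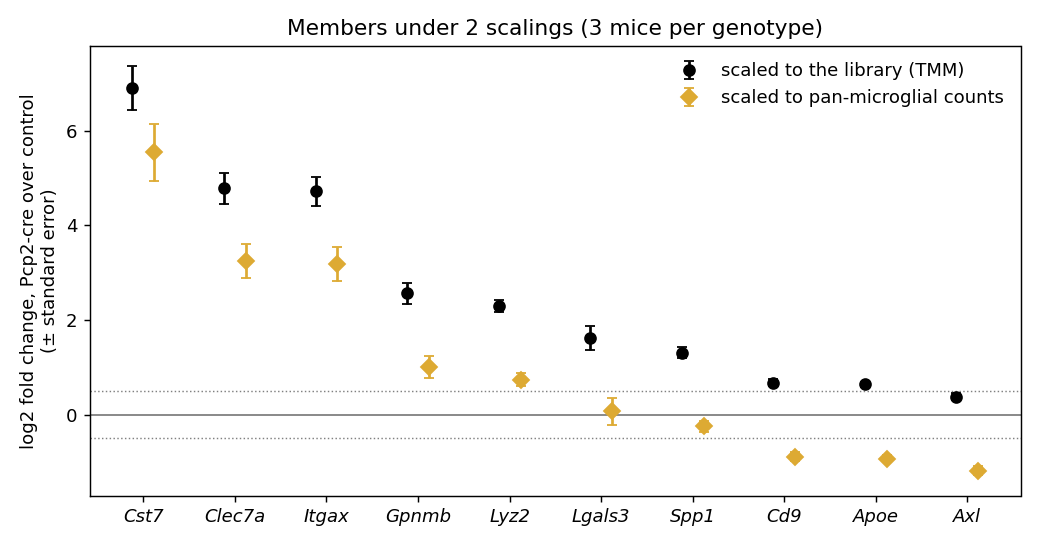
Log2 fold change of Pcp2-cre over control for each gene, scaled to the library (black circles) and to pan-microglial counts (yellow diamonds), with 3 mice per genotype. Error bars are the SE derived from the test's F statistic, which understates the uncertainty of *Cst7*, *Clec7a* and *Itgax*. Dotted lines mark the thresholds of -0.5 and 0.5. The second scale moves every gene down by a similar amount by construction, so the kept order is not a separate result. It puts *Apoe*, *Cd9* and *Axl* at -0.93, -0.89 and -1.19, and the median of all genes tested at -1.56.

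Over the 10 genes, the median of each mouse's log2 difference from the control mean was 0.13, -0.13 and 0.02 in the control mice and 1.91, 1.68 and 2.04 in the Pcp2-cre mice. Single genes spread more among the control mice, from -0.69 to 0.58 for *Gpnmb* and from -0.52 to 0.39 for *Clec7a*. Pcp2-cre mouse 3, the only female of its group, was the highest of all mice for 7 of the 10 genes. In edgeR, the interaction of sex and genotype had an adjusted p of at most 0.05 for 0 of the 10 genes and for 35 of all genes tested. With 1 female per genotype, a sex difference cannot be told from a difference between single mice. *Apoe* and *Lyz2* were the 2 genes with the smallest interaction p before adjustment. For *Lyz2* the log2 difference was 2.06 in males and 2.62 in females, and for *Apoe* it was 0.57 and 0.77. In the 2 males of each genotype alone, the same 9 genes were called.

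The wider disease-associated program was described with 23 other genes of it, of which 21 were tested. 12 were called higher, 0 were called lower, and 19 had an adjusted p of at most 0.05, all of them higher, with a median log2FC of 0.96. Of all 16961 genes tested, 507 were higher at that adjusted p in edgeR and 805 were lower. *Lpl*, the lipoprotein lipase, had a log2FC of 3.55 (adjusted p = 7.77e-11 in edgeR), the lysosomal protease gene *Ctsd* 1.04 (adjusted p = 8.28e-11 in edgeR) and *Tyrobp* 2.89 (adjusted p = 8.14e-10 in edgeR). *Trem2* had 2.62 (adjusted p = 1.94e-09 in edgeR). *Ank* at 0.10 and *Igf1* at -0.11 did not pass the test. The chemokine gene *Ccl4*, which did not pass the filter on low counts, had 0, 0 and 0 counts in control and 10, 9 and 11 counts in Pcp2-cre mice. Against pan-microglial counts, 8 of the 21 were called higher and 12 lower, where 98.9% of all genes tested were called lower.

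Ligands, partners and downstream genes of the 10 moved less as a list. Of 20 such genes 19 were tested, and 7 were called higher and 0 lower. Against 507 upward and 805 downward of all 16961 genes tested, 12 of the 19 passed the adjusted p of 0.05 upward and 1 downward. Their median log2FC was 0.24. DESeq2 called 4 of them higher, and limma on log2(FPKM + 1) called 4 with a filter on low values and 2 without it. *Itgb2*, the beta chain that pairs with CD11c, had 2.60 (adjusted p = 8.64e-09 in edgeR) and was the 1 partner called higher against pan-microglial counts, at 1.04. *Syk*, the kinase below dectin-1, had 1.49 (adjusted p = 0.00217 in edgeR), while *Card9*, which acts after it, had 0.24 (adjusted p = 0.575 in edgeR). Among cathepsin genes, *Ctsh* had 0.79 (adjusted p = 2.14e-04 in edgeR) and *Ctsc* 0.71 (adjusted p = 0.0161 in edgeR), while *Ctsl* at 0.44 and *Ctsb* at 0.21 were under the fold threshold. The AXL ligand gene *Gas6* had -0.29 (adjusted p = 0.00157 in edgeR), under the fold threshold. *Pros1*, which encodes protein S, had 0.63 (adjusted p = 0.00137 in edgeR). The related receptor gene *Mertk* had -0.14 (adjusted p = 0.330 in edgeR). *Tyro3*, another related receptor gene, had 0.22 (adjusted p = 0.00269 in edgeR), under the fold threshold. *Cst3*, a cystatin gene that did not reach the fold threshold, had 0.37 (adjusted p = 2.47e-05 in edgeR). The osteopontin receptor gene *Cd44* had 0.56 (adjusted p = 0.00285 in edgeR). The integrin genes *Itgav* at -0.02 (adjusted p = 0.921 in edgeR) and *Itgb5* at 0.24 (adjusted p = 0.00259 in edgeR) were not called. *Lgals3bp*, which encodes a galectin-3 binding protein, had 0.74 (adjusted p = 0.00110 in edgeR). Of the genes that take up or load APOE, *Lrp1* had -0.04 and *Abcg1* -0.09, neither of which passed the test, and *Abca1* had 0.27 (adjusted p = 0.00147 in edgeR).

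Homeostatic microglial genes were mostly higher. Of 10, 7 were called higher and 0 lower, with a median log2FC of 0.97 and summed levels of 48.1 to 52.8 CPM in control and 114 to 122 CPM in Pcp2-cre mice. *Fcrls*, a microglial Fc receptor-like gene, had 2.89 (adjusted p = 1.12e-11 in edgeR), the fractalkine receptor gene *Cx3cr1* 1.48 (adjusted p = 1.12e-09 in edgeR) and *Gpr34* 1.85 (adjusted p = 1.26e-05 in edgeR). *Tmem119* at 0.06, *Siglech* at 0.15 and *P2ry12* at 0.28 did not pass the test, with adjusted p of 0.922, 0.766 and 0.495 in edgeR. Against pan-microglial counts 5 of the 10 were called lower, among them these 3, against 98.9% of all genes tested, and *Fcrls* was called higher.

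Markers of other cells were set beside these values. Of 10 genes of border macrophages and monocytes, 4 passed the filter and 0 were called, with sums of 11.2 to 15.1 CPM in control and 14.2 to 18.5 CPM in Pcp2-cre mice. *Mrc1* had a log2 value of 0.36 (adjusted p = 0.378 in edgeR). Of 10 lymphocyte and neutrophil genes 0 passed the filter, their sums were 1.49 to 2.62 and 2.22 to 4.61 CPM, and *Nkg7* and *Ly6g* were at 0 in all mice. Astrocyte genes summed to 2791 to 2836 and 3158 to 3245 CPM, with 2 of 8 called higher (*Gfap* at 1.94 and *Aqp4* at 0.51, just over the threshold). That became 1 of 8 without control mouse 2, control mouse 3 or Pcp2-cre mouse 2. At an adjusted p of at most 0.05 in edgeR, 3 of the 8 astrocyte genes were higher and 2 were lower. Those lower were *Slc1a3* at -0.22 and *Gdf10* at -0.25. Of all 16961 genes tested, 507 were higher and 805 lower at that adjusted p. The part of astrocytes in the values of *Apoe*, *Axl* and *Cd9* was not tested. Oligodendrocyte genes summed to 3760 to 4010 and 4413 to 4630 CPM with 0 of 8 called. At an adjusted p of at most 0.05 in edgeR, 6 of the 8 were higher, as were 507 of all 16961 genes tested. Purkinje cell genes summed to 6662 to 7275 CPM in control and 3730 to 4095 CPM in Pcp2-cre mice, and 5 of 8 were called lower, while 0 of 8 granule cell genes were called.

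**Figure D4:**
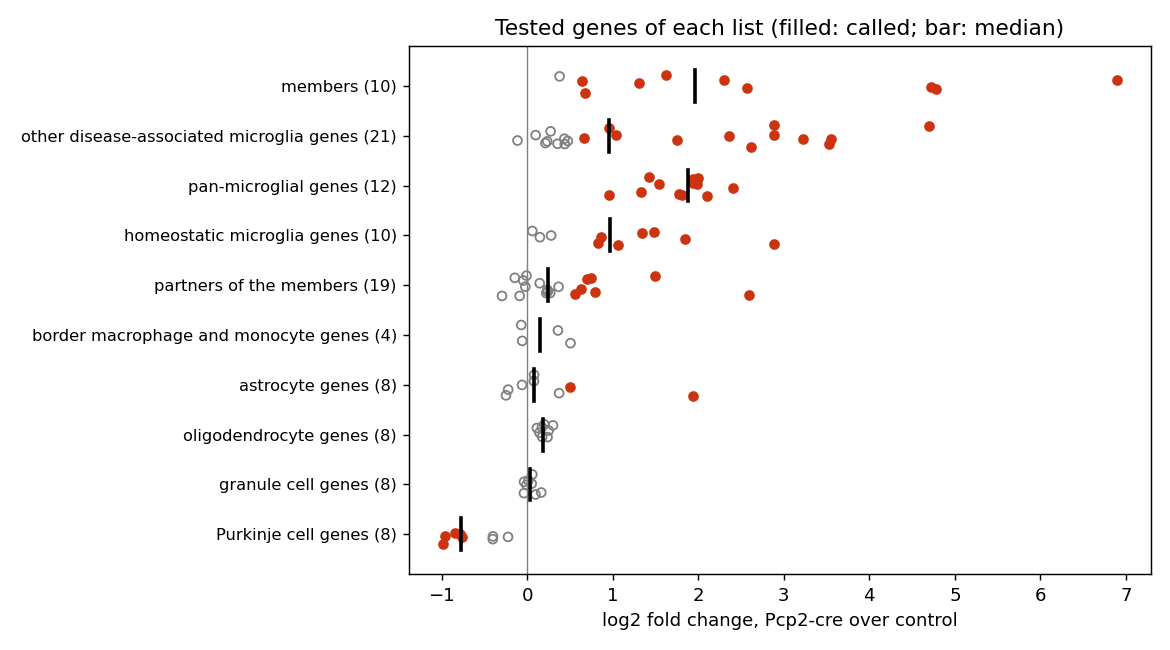
Log2 fold change of Pcp2-cre over control for each tested gene of the lists (number tested in brackets), scaled to the library, with filled red points for called genes, open grey points for the others and a black bar at the median. The 10 genes and the pan-microglial genes have medians of 1.96 and 1.88, border macrophage, oligodendrocyte and granule cell genes hold 0 called genes, and Purkinje cell genes lie below 0.

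Over the 6 mice, the genes outside the set whose log2 CPM followed the mean standardized profile of the 10 most closely were *Fcrls* (Pearson's r = 0.999), *C1qb* (0.999), *Gm26728* (0.998), *C1qa* (0.997) and *Serpina3n* (0.997). The 6 points share libraries and fall into the genotypes, so these values describe the step between genotypes more than any finer likeness. *Gm26728* is the lncRNA that overlaps *Cd9*. *Serpina3n*, a serine protease inhibitor gene raised in reactive astrocytes, had a log2FC of 2.82 (adjusted p = 8.14e-10 in edgeR).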

How the data were processed

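Whole-cerebellum poly A RNA of 6 mice was sequenced as paired reads. After trimming, the authors used STAR on GRCm39, then featureCounts and StringTie with Gencode genes, and deposited raw counts per gene and FPKM per gene. Which Gencode release was used, and how strand and multi-mapped reads were handled, is not given in the sources used here.

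The counts were filtered (filterByExpr), TMM-normalized and tested (quasi-likelihood) in edgeR 4.0.16 under R 4.3.3. FPKM were described per mouse and, for alternatives, tested with limma 3.58.1 after adding 1 or 0.1 and taking log2. DESeq2 1.42.0 was another alternative. Depth was 6733178 to 10178218 counts per mouse. Mice are separate animals. Coordinates, exon overlaps and shared 100-base stretches came from Gencode M39, and promoter windows from RefSeq (GRCm38.p6, matched to GRCm39 for those printed). *Clec7a* is typed as a polymorphic pseudogene in the deposited tables and as protein coding in M39.

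The 10 genes and all lists were chosen with earlier results of these data known. Named genes are the 10, in each list those with the smallest p and those needed for a count, the genes most like the 10, paralogs, and list genes added for their known role after their values were seen. Some single genes of the lists are not reported here. Scripts were tested on simulated data.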

Additional observations from a re-analysis of the deposited data

How the results depend on the processing

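The count of called genes among the 10 was 9 with DESeq2, DESeq2-style size factors, no filter, a covariate for sex or for choroid plexus genes, the males alone, and limma on log2(FPKM + 1) or log2(FPKM + 0.1) with a filter on low values. It was 4 where 10 counts were required in every mouse, since only 5 of the 10 then remained in the test, and the median log2 fold change of these was 0.67. Without the FPKM filter it was 8, with *Lgals3* lost at an adjusted p of 0.0683 in limma. It was 10 with no fold threshold, which adds *Axl*, and 7 at a log2 threshold of 1, which loses *Cd9* and *Apoe*. On log2(FPKM + 1) the median of the 10 was 1.38 with or without the filter, since the added 1 shrinks low genes by construction. Leaving out 1 mouse at a time gave 9 each time, with 183 to 245 of all genes called higher and 243 to 387 called lower. Against pan-microglial or homeostatic counts, or without the C1q genes in the sum, 5 were higher.

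Over all genes, 233 were called higher and 304 lower. Higher calls were 144 with DESeq2, 105 on log2(FPKM + 1) without a filter, 507 with no fold threshold and 142 at a log2 threshold of 1. Lower calls were 185 on log2(FPKM + 1), 116 on it without a filter, 805 with no fold threshold and 94 at a log2 threshold of 1. Apart from these built-in effects of thresholds and filters, the cause was not tested. The log2 fold change of each of the 10 genes kept its direction under these alternatives on the library scale. Of the other disease-associated genes, 6 were called higher where 10 counts were required in every mouse, and of the homeostatic genes 4 on log2(FPKM + 1) without a filter. The overlap of the 10 genes' groups was also checked in CPM, an alternative chosen after seeing the data, and gave 10 without overlap, as FPKM did. In CPM 10.8% of all genes tested were higher without overlap, and in FPKM the share was not counted.

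Replicate numbers are shared between genotypes, but same-numbered mice deviated from their group means with correlations of 0.0408, 0.0565 and 0.166, and not every mouse correlated best with its own number, so the numbers were not read as pairs. With a replicate block 9 of the 10 were called, 5 were higher against pan-microglial counts, and 229 and 319 of all genes were called higher and lower. Depth limits *Cst7*, *Itgax* and *Clec7a* in controls, where 0 to 5 counts per mouse leave the size of the fold uncertain.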
